A study of Mus musculus with 8 samples.

Results

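The 10 genes of the common gamma chain cytokine system considered here were followed in natural killer (NK) cells. They were the receptor chain genes Il2ra, Il2rb, Il2rg, Il15ra, Il7r, Il4ra and Il21r, the kinase gene Jak3, and the transcription factor genes Stat5a and Stat5b. They were chosen by gene symbol, and all 10 were found among the 45706 genes measured and passed the filter on low counts. RNA had been sequenced from NK cells titled as splenic (spNK, 4 libraries) and as tumour-infiltrating (tuNK, 4 libraries). Every host was a BALB/c mouse given CT26_β2m-/- cells under the skin, a mouse colorectal carcinoma line without β2-microglobulin and hence without MHC class I at its surface. No age, sex or treatment is given for the mice, and the markers of the sort are not named. In all 8 samples the title is at odds with the tissue and source fields, which give tumour for spNK and spleen for tuNK, so groups and directions here follow the titles, which also match the column names. Nothing in the labels says that the 4 libraries of a group are from different animals, and every p-value therefore covers just the library-to-library spread, which may be technical.

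The common gamma chain, encoded by Il2rg, is a subunit shared by the receptors for IL-2, IL-4, IL-7, IL-9, IL-15 and IL-21. It carries JAK3, while the signalling chain that pairs with it in each receptor carries JAK1. The pair of kinases phosphorylates STAT5 or, for some of the cytokines, STAT3 or STAT6. In NK cells IL-15 acts through the β chain (Il2rb) and the common chain and is needed for their development and survival. IL-15 is usually handed over by a neighbouring cell that holds it on the IL-15 receptor α chain, and CISH and SOCS proteins, induced by the same signal, dampen it.

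STAT5 dimers bind the palindrome TTCNNNGAA, where N is any base, and 3 stretches holding it are shown because the genes beside them represent the feedback and the receptor side of the results. The motif reads the same on both strands, and matches are in capitals. Sequences are from RefSeq on GRCm38.p6, read 5′ to 3′ on the strand of the gene. Offsets are from the RefSeq start of each gene. The Cish stretch starts 5 bases before it and holds 2 matches, the Il7r stretch lies upstream of it, and the Socs3 stretch runs from 250 to 86 bases upstream. GENCODE M21 starts all 3 genes farther out, so that each of the 3 stretches lies inside its gene bounds.
Cish, chr9:107296654-107296683, plus strand: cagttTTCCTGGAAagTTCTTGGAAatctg
Il7r, chr15:9529999-9530028, minus strand: gttcaggagcTTCAGGGAAtaccaagatgc
Socs3, chr11:117969452-117969616, minus strand: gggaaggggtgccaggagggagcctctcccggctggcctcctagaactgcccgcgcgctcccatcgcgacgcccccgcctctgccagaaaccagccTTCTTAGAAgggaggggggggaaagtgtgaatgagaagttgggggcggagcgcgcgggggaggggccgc

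Windows from 250 bases before to 50 bases after a start were listed for 50 of the 61 genes of the system considered here (the 10 members and 51 partners, ligands, targets and regulators). Of these 50 genes, 5 (10%) held the motif, against 9.55% of 27025 genes with a window. A window with 2 or more matches was found for 0.54% of all genes, and Cish and Lta were among them. Among the 9 members with a window, Il7r alone held a match. A match is a description of the letters and not a binding site.

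Libraries held between 38745733 and 53886933 estimated counts. Genes were compared with edgeR (quasi-likelihood F test), with p adjusted by Benjamini-Hochberg over the 14006 genes that passed the filter, and a gene was called at an adjusted p under 0.05. Levels of a gene are counts per 1000000 in the library (CPM) scaled by TMM, a method that sets the bulk of genes equal between libraries. The tuNK libraries also held RNA of other cells. Of 11 mesenchymal and carcinoma markers 10 were higher in tuNK, and their sum ran from 11.1 to 47.2 CPM in spNK and from 3088 to 4680 CPM in tuNK. The 10 NK cell markers were all lower (median -2.21 on the log2 scale), with sums of 11135 to 16107 CPM in spNK and 3401 to 4857 CPM in tuNK. Genes expressed across leukocytes were lower, 31 of 31, and their median change was -1.70 on the log2 scale (30.8% of spNK). A second scaling therefore set the median of these 31 genes, each relative to its own mean, equal between libraries. Values after it are called leukocyte-scaled. Single genes of the list still differed, with 7 called higher, 8 lower and 16 not called after this scaling. Under it the median change over all genes shifted by 1.75 (log2), and higher genes made up 93% of the called genes against 51.1% under TMM. After it 6 of the 10 NK markers were still lower, 1 was higher and 3 were not called (median -0.46). Red cell and platelet markers summed to 407 to 738 CPM in spNK and 4.19 to 7.32 CPM in tuNK. Library spNK 3 stood apart in macrophage markers (270 CPM, against 43.6 to 75.3 CPM in the other spNK libraries) and dendritic cell markers (425 against 173 to 287 CPM), and was the lowest of its group in NK markers. In tuNK the macrophage and monocyte markers summed to 63.1 to 79.6 CPM. Of the 7 tested, 2 were higher in tuNK (Cd14 and Mrc1), 2 were lower (Lyz2 and Csf1r) and 3 were not called. Cd14 reached at most 0.391 CPM in spNK and ran from 51.3 to 65.8 CPM in tuNK. The part of these cells in the members' results was not tested. In bulk samples fewer cells of a type and less RNA per cell cannot be told apart.

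Of the 10 members, 7 were lower and 1 was higher in tuNK, and 2 were not called. Il7r fell the most, Stat5a, Il2rg, Il21r, Il2rb and Stat5b fell by between 2.23-fold and 4.01-fold, and Il15ra fell by 0.67 on the log2 scale. Il2ra rose 3.54-fold from a very low level, and Il4ra and Jak3 were not called. Among all genes tested 69.6% were called, 34% lower and 35.6% higher. The median log2 fold change of the members was -1.21, against 0.02 over all genes tested. After leukocyte scaling 6 members were higher (Il2ra, Il2rb, Il15ra, Il4ra, Jak3 and Stat5b), Il7r was lower, and Il2rg, Il21r and Stat5a were not called. Under that scaling 78.9% of all genes were higher and 5.95% lower, so the share of higher members lay below that of all genes. The groups did not overlap in 8 of the 10 members, 7 with tuNK lower and 1 with tuNK higher. Of all genes tested 67.1% had groups without overlap, 32.7% with tuNK lower and 34.4% with tuNK higher.

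**Figure D1:**
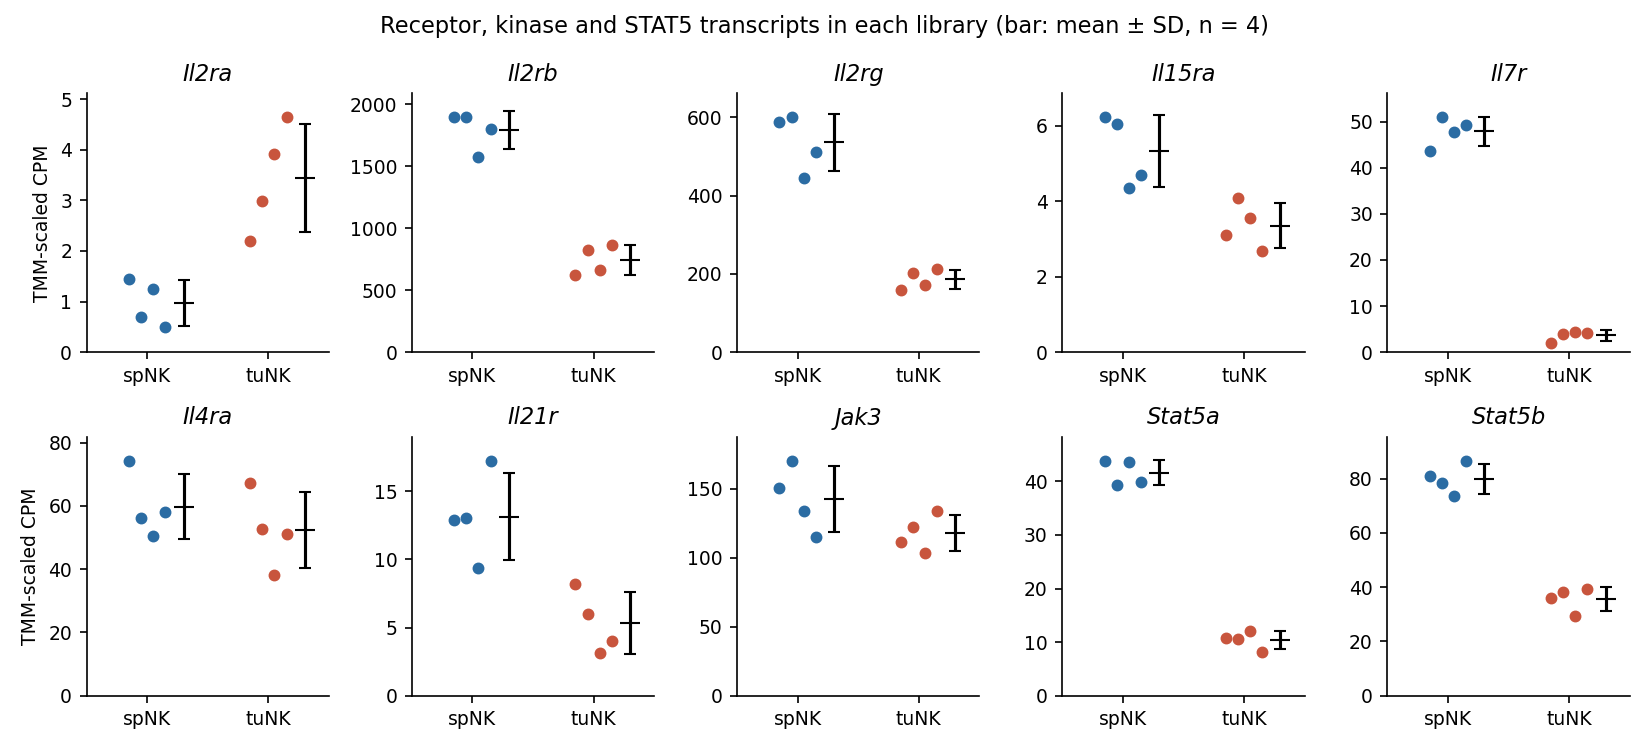
Level of each member in TMM-scaled CPM (vertical axis, from 0) in the 4 spNK libraries (blue) and the 4 tuNK libraries (red), with bars for mean ± SD. The 4 tuNK points of Il2rb, Il2rg, Il15ra, Il7r, Il21r, Stat5a and Stat5b lie below all spNK points, those of Il2ra lie above them, and those of Il4ra and Jak3 overlap.

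Il2rb (ENSMUSG00000068227, chr15:78479256-78495271, minus strand) encodes the β chain that IL-2 and IL-15 share. Its level was 1898, 1896, 1574 and 1802 CPM in spNK 1 to 4 and 621, 824, 667 and 863 CPM in tuNK 1 to 4. Every tuNK library was below every spNK library, and spNK 3 was the lowest of its group. The log2 fold change was -1.27 ± 0.12 (standard error; edgeR adjusted p = 5.43e-06), and leukocyte-scaled it was 0.47 (adjusted p = 0.00807), so the direction turned with the scaling. Il2rb was the most abundant member in both groups.

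Il2rg (ENSMUSG00000031304, chrX:101264378-101268255, minus strand) encodes the common gamma chain itself. It stood at 588, 601, 444 and 512 CPM in spNK 1 to 4 and at 158, 201, 173 and 212 CPM in tuNK 1 to 4. The groups were well apart, and Il2rg fell by 1.53 ± 0.13 on the log2 scale (edgeR adjusted p = 1.66e-06). After leukocyte scaling Il2rg was at 0.22, which was not called (adjusted p = 0.161). The annotated gene Gm20489 covers Il2rg on the same strand and received at most 12.7 estimated counts in a library, so few reads were assigned to it in place of Il2rg.

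Il2ra (ENSMUSG00000026770, chr2:11642807-11693193, plus strand) encodes the α chain (CD25), which raises the affinity for IL-2 and appears on activated lymphocytes. It was read 62, 39, 61 and 22 times in spNK 1 to 4 and 85, 128, 154 and 182 times in tuNK 1 to 4. In CPM this came to 1.44, 0.692, 1.25 and 0.499 in spNK and 2.20, 2.98, 3.91 and 4.65 in tuNK. All tuNK libraries were above all spNK libraries, with levels that stayed under 5 CPM. Il2ra rose by 1.82 ± 0.44 on the log2 scale (edgeR adjusted p = 0.00319) and by 3.55 leukocyte-scaled. Without each library in turn the change was 1.60 to 2.06, with adjusted p up to 0.014, and on log2(TPM + 1), which compresses low levels, it was 0.54.

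CD25 is also a marker of regulatory T cells, whose defining factor gene Foxp3 was at 0 in spNK and at most 0.285 CPM in tuNK. Among T cell markers Cd3e and Cd8b1 were at 0 in all tuNK libraries, and reached at most 0.572 and 0.286 CPM in spNK. Cd3g ran from 17.2 to 23.7 CPM in spNK and from 9.63 to 17.9 CPM in tuNK, and was higher by 1.14 leukocyte-scaled. Of the 5 T cell markers tested all were lower under TMM, and leukocyte-scaled 1 was higher, 2 were lower and 2 were not called. The summed T cell markers ran from 52.1 to 63.2 CPM in spNK and from 14.4 to 24.6 CPM in tuNK. The checkpoint gene Ctla4, which regulatory T cells and activated lymphocytes express, reached at most 0.256 CPM in spNK and ran from 3.76 to 22.5 CPM in tuNK. The 4 regulatory T cell markers summed to 1.34 to 5.45 CPM in spNK and 3.94 to 23.3 CPM in tuNK, where most of the sum was Ctla4. Cd4 of the same list was lower (1.25 to 5.45 CPM in spNK, 0.153 to 0.44 CPM in tuNK, edgeR adjusted p = 6.42e-04). Ikzf4 stayed at or under 0.442 CPM in both groups. The part of regulatory T cells in the Il2ra result was not tested.

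Il15ra (ENSMUSG00000023206, chr2:11705290-11734317, plus strand) encodes the α chain that binds IL-15 and presents it to neighbouring cells. The gene lies 12096 bases from Il2ra on the same strand, with no annotated gene between them. Il15ra stood at 6.24, 6.05, 4.35 and 4.69 CPM in spNK 1 to 4 and at 3.11, 4.08, 3.56 and 2.68 CPM in tuNK 1 to 4. The highest tuNK library was just below the lowest spNK library. The log2 fold change was -0.67 ± 0.25 (edgeR adjusted p = 0.0314), while leukocyte-scaled Il15ra was higher by 1.10. The call was lost without spNK 1 (-0.60, edgeR adjusted p = 0.081), spNK 2 (-0.60, 0.0795), tuNK 1 (-0.64, 0.0618) or tuNK 4 (-0.58, 0.0799), and also with the replicate number as a block (adjusted p = 0.0572). The neighbours Il2ra and Il15ra thus had calls of opposite direction under TMM.

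Il7r (ENSMUSG00000003882, chr15:9505788-9530176, minus strand) encodes the α chain of the IL-7 receptor, which marks immature NK cells, other innate lymphoid cells and resting T cells. It stood at 43.6, 51.0, 47.6 and 49.3 CPM in spNK 1 to 4 and at 1.99, 4.01, 4.45 and 4.14 CPM in tuNK 1 to 4. The spNK libraries lay close together, and the highest tuNK library, at 4.45 CPM, was far below the lowest of them. Il7r was 13.1-fold lower (log2 fold change -3.71 ± 0.22, edgeR adjusted p = 1.8e-07). It was the only member called lower under both scalings, with a leukocyte-scaled change of -1.97 ± 0.26 (adjusted p = 9.6e-06). The helper innate lymphoid markers Gata3 and Rora were also lower, and Il1rl1 was higher (3.50 to 13.0 CPM in spNK, 180 to 244 CPM in tuNK). The 7 markers of the list summed to 64.2 to 82.2 CPM in spNK and 196 to 255 CPM in tuNK. Il5 was read in a single spNK library, at 0.143 CPM. The part of such cells in the Il7r result was not tested, nor that of the NK markers, whose median was also below 0 under both scalings.

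Il4ra (ENSMUSG00000030748, chr7:125552120-125579474, plus strand) encodes the IL-4 receptor chain, which pairs with the common gamma chain in lymphocytes and with the IL-13 receptor chain of Il13ra1 in many other cells. It stood at 74.3, 56.1, 50.5 and 58.1 CPM in spNK 1 to 4 and at 67.3, 52.6, 38.3 and 51.1 CPM in tuNK 1 to 4. The groups overlapped, and the log2 fold change was -0.19 ± 0.17 (edgeR adjusted p = 0.337). With both spNK 3 (highest among spNK in B cell, macrophage and dendritic cell markers) and tuNK 1 (highest among tuNK in mesenchymal markers) left out, Il4ra was called lower (-0.42, edgeR adjusted p = 0.037). Leukocyte-scaled it was higher by 1.56 (adjusted p = 4.25e-06).

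Il21r (ENSMUSG00000030745, chr7:125603429-125633570, plus strand), for the IL-21 receptor, lies 23954 bases from Il4ra on the same strand, with no annotated gene between them. It stood at 12.9, 13.1, 9.39 and 17.3 CPM in spNK 1 to 4 and at 8.21, 6.01, 3.10 and 4.01 CPM in tuNK 1 to 4. The groups did not overlap, and tuNK 1 came closest to spNK. Il21r fell by 1.30 ± 0.31 on the log2 scale (edgeR adjusted p = 0.00291), but its leukocyte-scaled change was 0.44 and not called (adjusted p = 0.19).

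B cells carry both of these receptors. The 9 B cell markers summed to between 19.2 and 42.5 CPM in spNK, highest in spNK 3, and to between 0.842 and 1.60 CPM in tuNK, and Ms4a1, Blk, Fcrla and Fcer2a were at 0 in all tuNK libraries. The part of B cells in the Il4ra and Il21r values was not tested.

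Jak3 (ENSMUSG00000031805, chr8:71676296-71690575, plus strand) encodes the kinase bound to the common gamma chain. It stood at 151, 170, 134 and 115 CPM in spNK 1 to 4 and at 112, 122, 103 and 133 CPM in tuNK 1 to 4. The groups overlapped through spNK 4, and the log2 fold change was -0.28 ± 0.13 (edgeR adjusted p = 0.0741). It was called lower without spNK 4 (-0.38, edgeR adjusted p = 0.0175), without tuNK 4 (-0.35, 0.0496), by library size alone (-0.44) and on log2 TPM (-0.50 and -0.51), and higher by 1.46 when leukocyte-scaled. Insl3, which lies at the end of Jak3 on the same strand, received at most 9.52 estimated counts in a library.

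Jak1, whose product sits on the signalling chains that pair with the common chain, moved differently from Jak3. Its level ran from 931 to 1279 CPM in spNK and from 196 to 281 CPM in tuNK, a log2 fold change of -2.21 ± 0.14 (edgeR adjusted p = 2.79e-07). It was also lower leukocyte-scaled, at -0.46 (adjusted p = 0.0101), the same as the median of the NK markers. Tyk2, a relative of Jak1 used by IL-12 and interferon receptors, fell by 2.19 (-0.45 leukocyte-scaled, adjusted p = 0.00668).

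Stat5a (ENSMUSG00000004043, chr11:100859351-100885169, plus strand) and Stat5b (ENSMUSG00000020919, chr11:100780731-100850724, minus strand) encode the paired STAT5 proteins. They lie 8626 bases apart and point away from each other. Stat5a overlaps Stat3, on the opposite strand, by 72 bases. Stat3 received up to 8447 estimated counts in a library, and the part of this overlap in the Stat5a counts was not tested. Stat5a stood at 43.9, 39.3, 43.6 and 39.8 CPM in spNK 1 to 4 and at 10.7, 10.5, 12.1 and 8.19 CPM in tuNK 1 to 4. Stat5b stood at 80.8, 78.2, 73.7 and 86.6 CPM in spNK and at 36.1, 38.4, 29.4 and 39.1 CPM in tuNK. The groups of each gene were clearly apart. Stat5a was 4.01-fold lower (standard error 0.13 on the log2 scale, edgeR adjusted p = 3.44e-07) and Stat5b fell by 1.16 ± 0.11 on the log2 scale (edgeR adjusted p = 3.56e-06). Leukocyte-scaled, Stat5a was at -0.24 and not called (adjusted p = 0.333), and Stat5b was higher by 0.57 (adjusted p = 0.00202).

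The split of reads between the 2 STAT5 genes is uncertain, because their messages share sequence. Of 3829 windows of 60 nt in the longest coding transcript of Stat5a, 510 (13.3%) also occur in that of Stat5b, and the longest identical run, inside the coding sequence, has 324 nt. Its first 120 nt are printed to show what a read of 60 nt cannot tell apart, from GENCODE M21:
Stat5a and Stat5b: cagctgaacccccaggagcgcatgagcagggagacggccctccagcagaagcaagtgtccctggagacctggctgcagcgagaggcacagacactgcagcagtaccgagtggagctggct
Of the single estimated counts of Stat5a or Stat5b 0 were whole numbers, while their sum was whole in 8 of 8 libraries, within 0.002. That sum does not depend on the split. Its mean was 121 ± 4.77 CPM in spNK against 46.1 ± 3.18 CPM in tuNK (SD, n = 4), or 38%, with ranges of 117 to 126 and 41.6 to 48.9 CPM. Stat5a took 31.5 to 37.2% of these counts in spNK and 17.3 to 29.2% in tuNK.

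**Figure D2:**
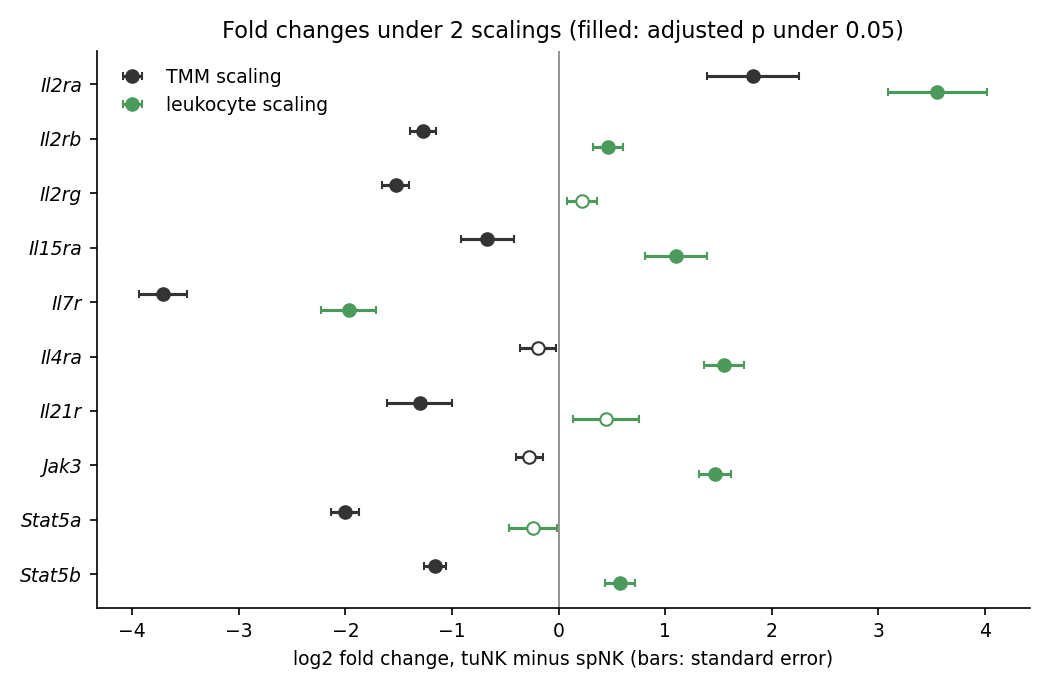
Log2 fold change of each member, tuNK minus spNK, with its standard error, under TMM scaling (black) and leukocyte scaling (green). Filled points have an edgeR adjusted p under 0.05. Il2ra is right of 0 and Il7r left of 0 under both scalings, Stat5a is left of 0 in both but filled under TMM alone, and the other 7 change side.

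TPM values, which account for gene length and sum to 1000000 in a library, allow levels to be compared between genes. In spNK the order of mean TPM was Il2rb (801), Il2rg (439), Jak3 (42.6), Stat5b (20.7), Il7r (17.6), Stat5a (16), Il4ra (13.5), Il15ra (6.59), Il21r (6.06) and Il2ra (0.255). The ranges of neighbours overlapped from Stat5b down to Il4ra and between Il15ra and Il21r. In tuNK the order was Il2rb (280), Il2rg (127), Jak3 (29.7), Il4ra (10.1), Stat5b (8.70), Il15ra (3.11), Stat5a (2.90), Il21r (2.13), Il7r (1.11) and Il2ra (0.826). Neighbours overlapped there between Il4ra and Stat5b and along the whole run from Il15ra to Il2ra. The first 3 places were the same in both groups and separated from their neighbours. In spNK the lowest Il7r library (16.3 TPM) exceeded the highest Il2ra library (0.385 TPM) many times over, whereas in tuNK the 2 genes overlapped (0.699 to 1.29 TPM and 0.659 to 1.12 TPM). In TPM the groups of Il15ra overlapped (3.72 to 9.47 TPM in spNK, 2.40 to 3.78 TPM in tuNK) and those of Jak3 did not (34.5 to 50.8 TPM and 24.3 to 31.9 TPM).

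**Figure D3:**
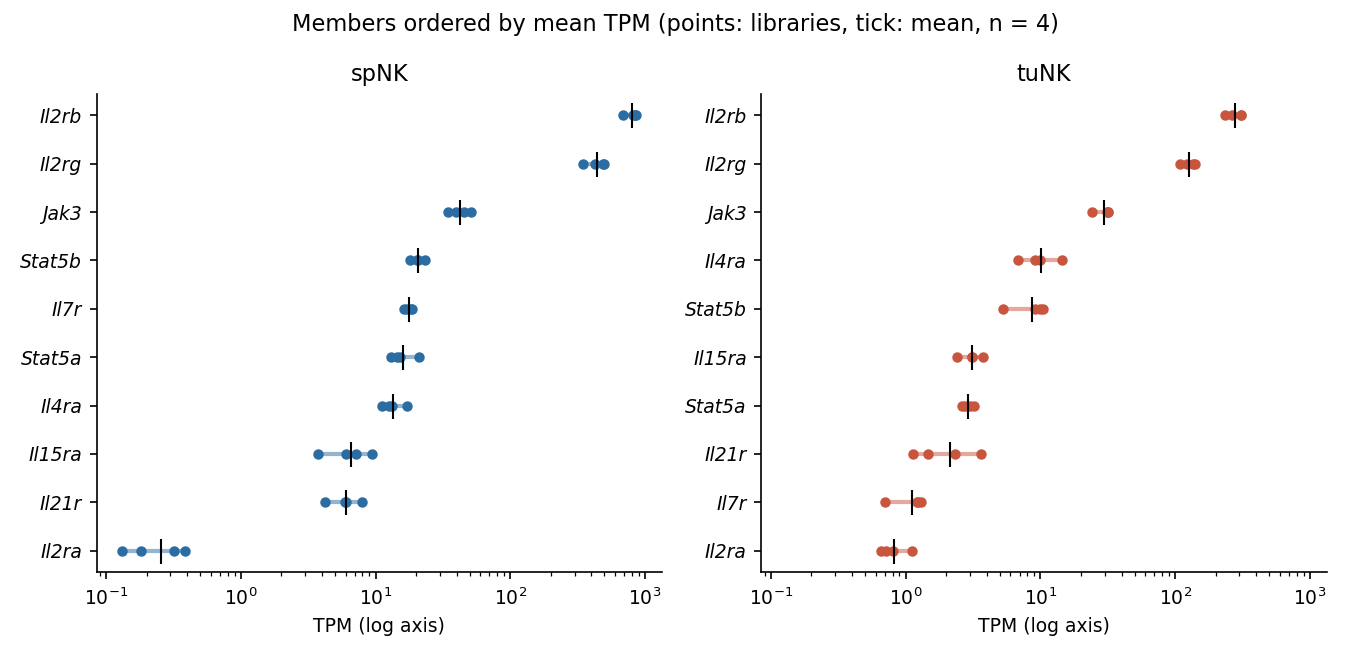
TPM of each member on a log axis, with genes ordered by their mean in spNK (left) and tuNK (right); points are libraries, horizontal lines their range and ticks the mean. Il2rb, Il2rg and Jak3 lead both panels, Il7r moves from the fifth place to the ninth, and Il2ra is last in both.

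Ratios of a pair of genes inside a library do not depend on how libraries are scaled. For 10 such ratios of TPM, with 0.1 TPM added to each gene, groups were compared by exact permutation (two-sided, 70 ways of splitting the libraries), and p was adjusted over the 10. The smallest p this test allows is 0.0286, or 0.0357 after adjustment, and 8 ratios reached it. They concern the balance between genes in the RNA of a whole library, whichever cells it came from. With a library left out there are fewer splits, so a ratio can lose its call while its groups stay apart.

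The balance of the IL-15 and IL-2 signalling pair shifted slightly. Il2rb to Il2rg was 1.72 to 1.98 in spNK and 2.15 to 2.29 in tuNK, 1.20-fold higher with no overlap (exact permutation p = 0.0286), not called without tuNK 2 (log2 difference 0.24, adjusted p = 0.0714). Jak3 to Il2rg was 0.0814 to 0.113 in spNK and 0.223 to 0.259 in tuNK, 2.41-fold higher (exact permutation p = 0.0286). Jak3 to Jak1 was 0.133 to 0.178 in spNK and 0.516 to 0.703 in tuNK, 3.81-fold higher (exact permutation p = 0.0286). The kinase of the common chain was thus more abundant in tuNK libraries relative to both its receptor chain and its partner kinase.

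The other receptor chains spread in both directions relative to their partners. Il2ra to Il2rb rose 7.70-fold, from 0.000286 to 0.000609 in spNK to 0.00244 to 0.00397 in tuNK, and Il4ra to Il2rg rose 2.52-fold, from 0.026 to 0.0349 to 0.0633 to 0.118 (exact permutation p = 0.0286 each). The size of the Il2ra ratio depends on the 0.1 TPM added, since Il2ra itself was at 0.132 to 0.385 TPM in spNK: with 1 TPM added its log2 difference was 2.06 in place of 2.94. Il7r to Il2rg was 4.35-fold lower, at 0.0333 to 0.0496 in spNK and 0.00648 to 0.0127 in tuNK (exact permutation p = 0.0286), with a log2 difference of -2.12, or -1.37 with 1 TPM added. Il21r to Il2rg overlapped between groups, at 0.0124 to 0.0191 in spNK and 0.0112 to 0.03 in tuNK (exact permutation p = 0.714). Il15ra to Il2rb also overlapped (0.00471 to 0.0111 and 0.00941 to 0.0137, exact permutation p = 0.114, adjusted p = 0.127), but was called without spNK 1 (log2 difference 0.68, adjusted p = 0.0357) and with 1 TPM added (0.68, adjusted p = 0.0317).

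Il4ra outweighed Il13ra1 by 12.4-fold to 77.6-fold in spNK and by 3.36-fold to 4.52-fold in tuNK (exact permutation p = 0.0286), and was not called without any 1 of the tuNK libraries (log2 difference -3.33 to -3.19, adjusted p = 0.0714). With 1 TPM added the difference was -1.83 in place of -3.25. Il13ra1, the partner of IL-4 receptor in non-lymphoid cells, rose by 3.14 ± 0.63 on the log2 scale (edgeR adjusted p = 0.00126), from 0.721, 0.852, 2.63 and 0.227 CPM in spNK 1 to 4 to 14.2, 10.5, 5.77 and 8.91 CPM in tuNK 1 to 4. Il13ra2, a receptor for IL-13 that acts largely as a decoy, had 0 counts in spNK and 1.10 ± 0.265 CPM in tuNK (SD, n = 4), at least 17.5-fold higher against a floor of 3 counts per library. Both rose beside the mesenchymal and carcinoma markers, whose part in them was not tested. Stat5a to Stat5b was 2.18-fold lower in tuNK (0.641 to 1.17 in spNK, 0.271 to 0.574 in tuNK, exact permutation p = 0.0286), with the uncertain split of reads given above, and was not called without any 1 of the spNK libraries. Its log2 difference without spNK 3, the highest, was -0.92 (adjusted p = 0.0714).

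**Figure D4:**
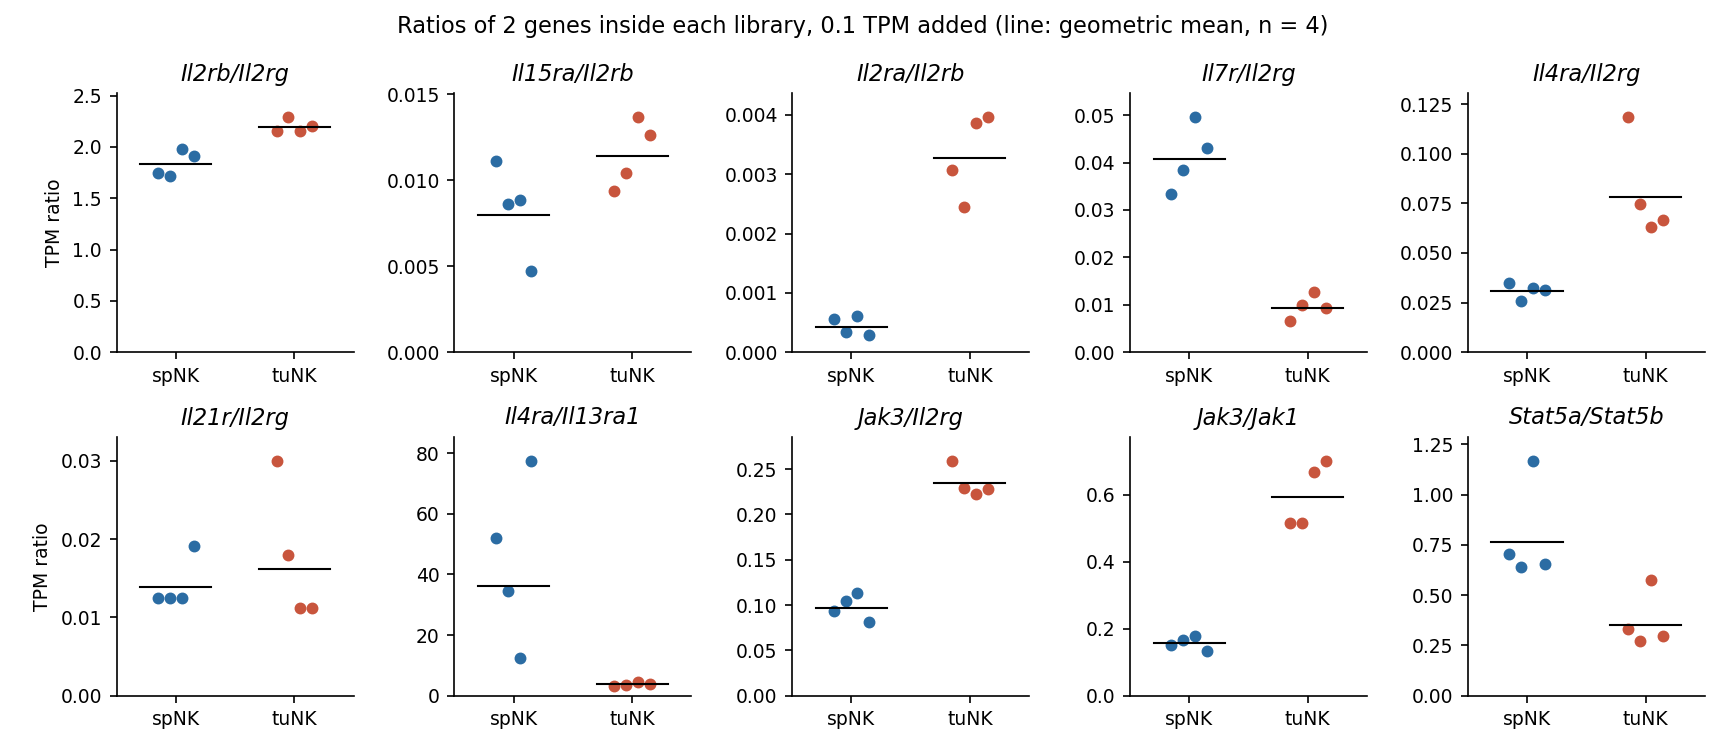
TPM ratio of 10 gene pairs in each library (vertical axes from 0, 0.1 TPM added to each gene), spNK in blue and tuNK in red, with a line at the geometric mean. The other 8 pairs do not overlap between groups, and Il15ra/Il2rb and Il21r/Il2rg do.

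Few ligands of the system were read in these libraries. Of 8 ligand genes, Il15 and Il7 passed the filter and both were higher in tuNK. Il15 stood at 0.396, 1.21, 2.27 and 1.86 CPM in spNK 1 to 4 and at 6.06, 4.38, 2.95 and 3.19 CPM in tuNK 1 to 4. Its log2 fold change was 1.53 ± 0.49 (edgeR adjusted p = 0.0166), and without tuNK 1 it was 1.28 and not called (adjusted p = 0.0594). Il7, a cytokine of stromal cells, ran from 0.204 to 0.497 CPM in spNK and from 1.51 to 2.10 CPM in tuNK, and rose by 2.32 ± 0.46 (edgeR adjusted p = 0.00103). The mesenchymal and carcinoma markers summed to 4680, 3095, 3088 and 3356 CPM in tuNK 1 to 4. Il15 and Il7 were highest in tuNK 1, but tuNK 4, second in that sum, had the least Il7. The part of such cells was not tested. Il2 stayed at or under 0.34 CPM, Il4 at or under 0.249 CPM, and Il9 and Il21 were at 0 in all 8 libraries. Such levels do not show that a cytokine was absent from the tissue, since it could come from cells that were sorted out.

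Of 3 partner receptor chains tested, Il13ra1 and Il13ra2 were higher, as given above, and Crlf2 was lower. Il9r, for IL-9, was at most 0.368 CPM in a library. Crlf2, which joins the IL-7 receptor chain to form the receptor of TSLP, ran from 61.6 to 75.9 CPM in spNK and from 51.3 to 58.7 CPM in tuNK. It fell by 0.34 ± 0.09 (edgeR adjusted p = 0.00701), next to -3.71 for its partner Il7r, and was higher by 1.41 when leukocyte-scaled. Of 6 partner kinases and STATs, 5 were lower and 0 higher under TMM, and leukocyte-scaled 4 were higher and 2 (Jak1 and Tyk2) lower. Stat3, used by IL-21, changed by -0.59, and Stat6, used by IL-4, by -0.61 (edgeR adjusted p = 0.00442 and 6.69e-05).

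Of 10 genes for adaptors and side branches, 6 were lower and 2 higher. Syk and Lck, kinases that can associate with the β chain, changed by -2.53 and -1.83, and Pik3cd, the PI3K catalytic subunit of leukocytes, by -1.88. Irs2, an adaptor that IL-4 receptor engages and many other cells express, rose by 2.45 ± 0.30 (3.22 to 4.14 CPM in spNK, 10.6 to 33.0 CPM in tuNK, edgeR adjusted p = 3.33e-05). Akt1 rose by 0.60. Leukocyte-scaled the count of this list turned to 6 higher and 1 lower, with 3 not called. Syk was the lower one (-0.81), Lck (-0.09), Pik3cd (-0.15) and Pik3r1 (0.15) were not called, and Grb2 (-0.98 to 0.76) and Shc1 (-0.23 to 1.53) changed side.

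STAT5 target genes went both ways, with 6 of 14 lower, 5 higher and 3 not called. Their median log2 fold change was -0.14, against 0.02 over all genes tested, and leukocyte-scaled all 14 were higher, with a median of 1.57 against 1.77 over all genes tested. Cish, the feedback gene with 2 motif matches shown above, stood at 3.56, 1.19, 3.63 and 4.83 CPM in spNK 1 to 4 and 5.07, 4.78, 2.59 and 8.07 CPM in tuNK 1 to 4. The groups overlapped (log2 fold change 0.64 ± 0.44, edgeR adjusted p = 0.221). The survival genes were split. Bcl2 and Mcl1 fell by 0.79 and 0.75, whereas Bcl2l1, which encodes BCL-XL and is expressed in most tissues, rose by 0.77 ± 0.14 (54.9 to 93.8 CPM in spNK, 117 to 134 CPM in tuNK, edgeR adjusted p = 6.54e-04). The cyclin genes Ccnd2 and Ccnd3 fell by 1.08 and 1.36, Pim1, a survival kinase, by 0.71, and Socs2, a feedback gene, by 1.09.

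Another 4 targets were called higher. Dusp5, a phosphatase of ERK, rose by 0.80 and Nfil3, a factor of NK development, by 1.05, and neither was called on log2 TPM. Nfil3 was also not called without both spNK 3 and tuNK 1 (0.68, edgeR adjusted p = 0.0603). Myc had a log2 fold change of 0.59 (edgeR adjusted p = 0.0209), and was not called without tuNK 1 (0.39), tuNK 2 (0.56) or spNK 1 (0.48), with the replicate block (0.56, adjusted p = 0.0799), or by library size alone (0.43). Osm had 0.43 (edgeR adjusted p = 0.046) and was not called without spNK 2 (0.43), spNK 3 (0.36), spNK 4 (0.38), tuNK 1 (0.41), tuNK 2 (0.38) or tuNK 4 (0.33), with the replicate block (0.41, adjusted p = 0.051), or with no filter (0.41). On log2 TPM Bcl2l1 was the only target called higher.

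Of 9 negative regulators, 5 were lower and 3 higher. Socs3, which blocks JAK kinases mainly at receptors of the IL-6 family and holds the motif match shown above, stood at 8.26, 7.54, 9.05 and 10.2 CPM in spNK 1 to 4 and at 269, 158, 71.6 and 107 CPM in tuNK 1 to 4. It was 17.3-fold higher (log2 fold change 4.11 ± 0.41, edgeR adjusted p = 2.94e-05), with tuNK 1 the highest. Socs1, which acts on JAK kinases below common chain and interferon receptors, stood at 9.96, 10.3, 9.35 and 12.9 CPM in spNK and at 32.1, 41.3, 28.1 and 33.1 CPM in tuNK, and rose by 1.67 ± 0.15 (edgeR adjusted p = 3.61e-06). Pias3 rose by 0.49, but not without spNK 4 (0.44, edgeR adjusted p = 0.0538), by library size alone (0.32) or on log2 TPM (0.25 and 0.26). The phosphatase genes Ptpn6, Ptpn2 and Ptpn1 fell by 1.34, 0.86 and 0.81, Pias1 by 1.35, and Cblb, a ubiquitin ligase, by 1.23. Sh2b3 was not called (0.10). All 9 were higher when leukocyte-scaled, as were 78.9% of all genes tested. Their median was then 0.93, against 1.77 over all genes tested.

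**Figure D5:**
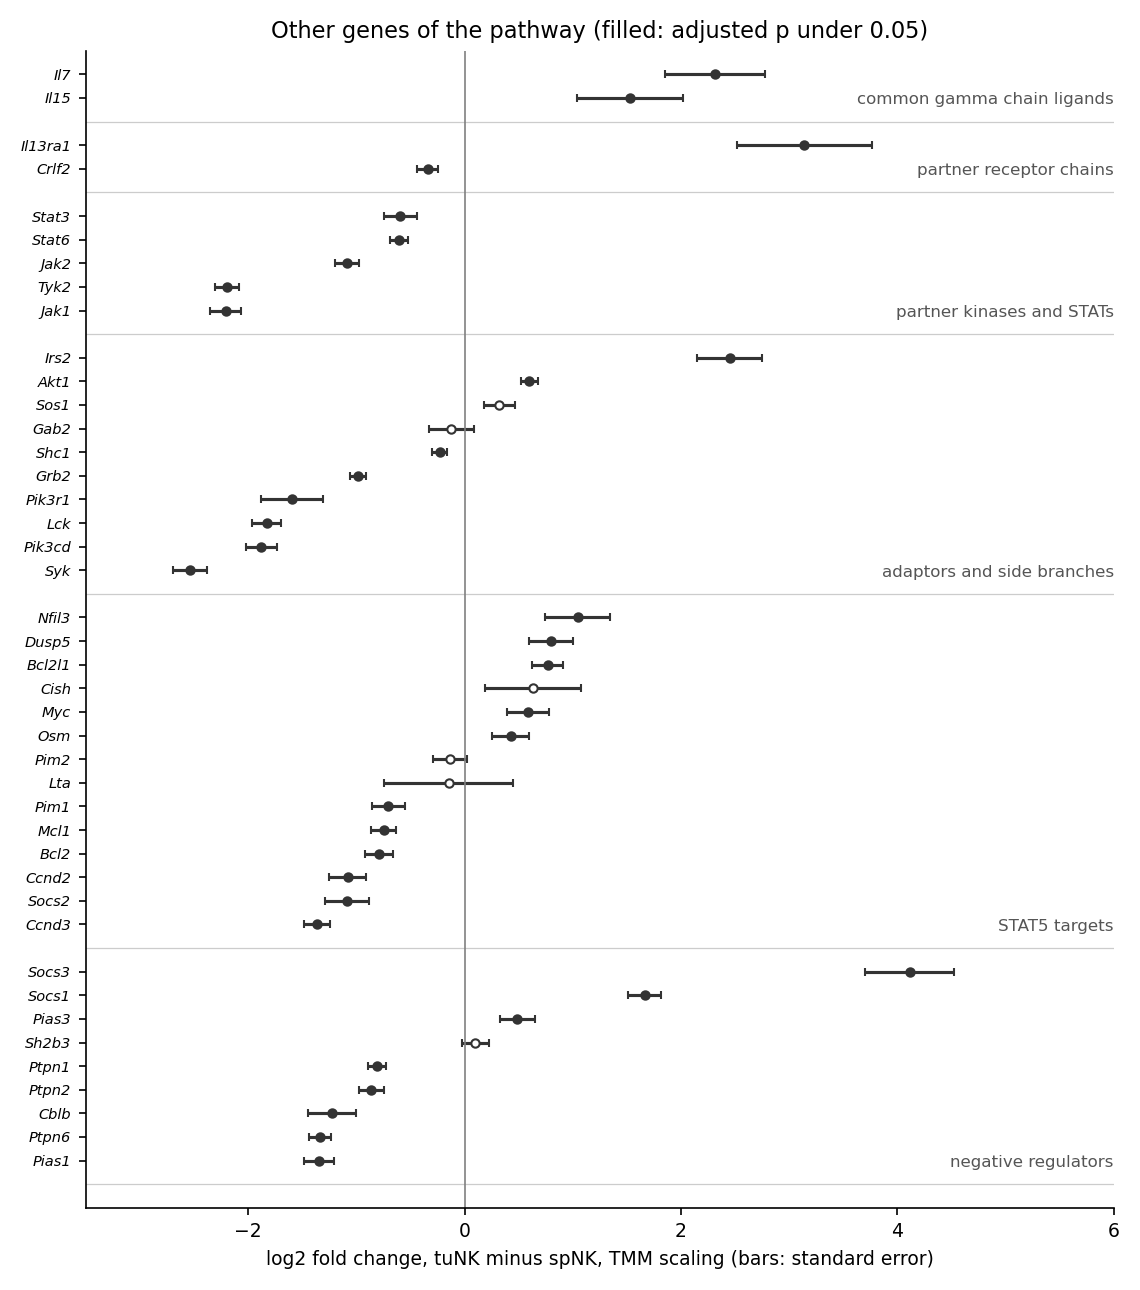
Log2 fold change, tuNK minus spNK under TMM scaling, with standard error, for tested pathway genes outside the members that are reported here, grouped by role. Filled points have an edgeR adjusted p under 0.05, and Il13ra2, with 0 counts in spNK, is left out. Socs3 is farthest to the right and Syk farthest to the left.

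For 5 members the genes most like them were sought among 9130 genes that averaged 10 CPM or more in either group. Pseudogenes and genes with a Gm number or Rik symbol were left out. Genes were ranked by the root mean square difference between profiles of log2 CPM, each set to its spNK mean, over the 8 libraries. The nearest to Il2rb were Lat2, Coro1a and B4galt1 (0.0494 to 0.0575). Those nearest to Il2rg were Tmsb4x, Ctsd and Ctsw (0.0494 to 0.0669). Jak3 was most like Plekhg2, AU019823 and Cc2d1b (0.0756 to 0.0913). Likeness was weaker for Il7r, with Gpr25, Lfng and Trp53inp1 (0.246 to 0.269), and for Il2ra, with Tbc1d7, Nicn1 and Rab3ip (0.28 to 0.399). In tuNK Il7r ran from 1.99 to 4.45 CPM and Il2ra from 2.20 to 4.65 CPM. The part of counting error at such levels was not tested. Of the genes tested so many differed between the groups that likeness mostly reflects the size of the group difference.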

How the data were processed

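RNA of sorted NK cells was sequenced in 8 libraries. Per the submitters' processing notes, FastQC 0.11.9, STAR and Salmon were used with GRCm38 (mm10). No source used here names other versions, the annotation or whether counting used strand. The authors deposited estimated counts (expected counts per gene, not normalized) and TPM, which sums to 1000000 in each library.

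Estimated counts were rounded, filtered with filterByExpr, scaled with TMM and tested with edgeR 4.0.16 (quasi-likelihood, robust, Benjamini-Hochberg, threshold 0.05). Alternatives used DESeq2 1.42.0 and limma 3.58.1. The test was also run on counts simulated with the levels and spread of these data. Replicate numbers are not said to pair the samples, and the main fit did not pair them. Gene positions are from GENCODE M21 and those of printed promoter stretches from RefSeq. Genes were matched by identifier for 10 of 10 members. No protein sequences were used here. Columns without a sample numbered 0. The floor of 3 counts covers counting error only, while standard errors and SDs cover the spread between libraries.

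The members and gene lists were chosen with earlier results of these data known. Members were named whatever their result, and every gene of the pathway lists could be named. Marker genes were named with their lists. One leukocyte gene listed under a symbol with 2 rows, Arhgap30, was left out. A few genes of these lists are counted in them but not reported here by name.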

Additional observations from a re-analysis of the deposited data

Results flagged for a closer look

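A single library stood far from the other 3 of its group in 9 of the 128 groups of values checked, by Dixon's gap-to-range criterion. Chance flags about 1 in 20 groups. The low library was spNK 3 for Stat6 (163.6 CPM), Grb2 (150.5 CPM), Gab2 (6.29 CPM) and Cblb (59.1 CPM), and spNK 4 for Irs2 (3.22 CPM). The high library was tuNK 4 for Bcl2 (56.2 CPM) and tuNK 1 for Mcl1 (265 CPM). Among the TPM ratios, spNK 4 was high for Il21r to Il2rg (0.0191) and spNK 3 for Stat5a to Stat5b (1.17). In 5 of the 9 the library was spNK 3. None of the 10 members was flagged by its own CPM in either group.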

How the results depend on the processing

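Under leukocyte scaling the log2 fold changes of Il2rb (0.47), Il2rg (0.22), Il15ra (1.10), Il4ra (1.56), Il21r (0.44), Jak3 (1.46) and Stat5b (0.57) turned, Stat5a was not called (-0.24), 6 members were higher and 1 lower, 38 pathway genes were higher and 3 lower (14 and 23 under TMM), and 11047 of all genes were higher and 834 lower (4983 and 4761 under TMM). Jak3 was called by library size alone (-0.44) and on log2 TPM with 1 (-0.50) or 0.1 (-0.51) added, where 9 pathway genes were higher under either offset. Il15ra was not called with no filter (-0.69) or with the replicate block (-0.67). Without both spNK 3 and tuNK 1, Il4ra was called (-0.42) and the ratio Il21r to Il2rg turned (-0.13). The other ratios then could not pass, since 3 against 3 allows no exact permutation p under 0.1, and were Il2ra/Il2rb 3.15, Il2rb/Il2rg 0.31, Il4ra/Il13ra1 -3.70, Il4ra/Il2rg 1.15, Il7r/Il2rg -1.85, Jak3/Il2rg 1.29, Jak3/Jak1 2.06 and Stat5a/Stat5b -0.89 as log2 differences. The replicate block leaves each ratio difference as it was (2.94, 0.26, -3.25, 1.33, -2.12, 1.27, 1.93 and -1.13 in that order), and its sign-flip test allows no p under 0.125. Same-numbered libraries correlated by -0.008 to 0.042 in their deviations from the group means. These correlations cannot show whether the number marks a shared mouse, since libraries of the same mouse need not deviate alike. The block changed no other member's call. Adding 1 TPM gave 0.68 for Il15ra/Il2rb, then called. Leaving out each library in turn gave ranges of 1.60 to 2.06 for Il2ra, -1.35 to -1.21 for Il2rb, -1.62 to -1.47 for Il2rg, -0.78 to -0.58 for Il15ra, -3.83 to -3.52 for Il7r, -0.35 to -0.08 for Il4ra, -1.60 to -1.12 for Il21r, -0.38 to -0.18 for Jak3, -2.10 to -1.91 for Stat5a and -1.21 to -1.09 for Stat5b. The ratios ranged over -0.0798 to 0.39 for Il21r/Il2rg (reversed without tuNK 1), 0.27 to 0.68 for Il15ra/Il2rb, 0.23 to 0.30 for Il2rb/Il2rg, -3.76 to -2.88 for Il4ra/Il13ra1 and -1.36 to -0.92 for Stat5a/Stat5b. The causes were not tested. Il2ra, at 22 to 182 counts, is the member whose depth limits precision most.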
